A study of Mus musculus with 18 samples.

Results

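The day after a Wnt pulse was followed in mouse gastruloids by comparing control gastruloids collected 96 h after aggregation (3 libraries) with control gastruloids collected at 72 h (3 libraries). These are 6 of the 18 polyA RNA sequencing libraries of the series, chosen by their labels alone, and all genes were considered. Gastruloids are aggregates of embryonic stem cells that lengthen and form a head-to-tail axis in culture. All groups were wild type (WT) and of strain 129/SVEV. CHIR, which blocks GSK3 and thereby switches on Wnt/beta-catenin signalling, was given to the control arm from 48 to 72 h. The 72 h libraries were therefore taken as the pulse ended and the 96 h libraries 24 h later. The other groups used here are the untreated controls at 48 h, and the early arm, which received CHIR from 24 to 48 h and was collected at 48, 72 and 96 h (3 libraries each). Each tube held pooled gastruloids, so a library is an average over many aggregates and over every cell type in them. Gastruloids are made without the extraembryonic tissues that surround an implanted embryo, and the tissue label names no cell type. Whether replicates were grown as separate cultures is not stated, so every p-value reflects the spread among these libraries alone, and that spread may be technical.

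In the embryo, Wnt, Nodal and FGF signals pattern the primitive streak, where epiblast cells lose pluripotency and their epithelial junctions and become mesoderm or endoderm. The posterior body then grows from the tailbud, whose progenitors express T (Brachyury), Cdx and Wnt3a, feed presomitic mesoderm with a Notch-driven segmentation clock, and switch on Hox genes in the order of their place in the cluster. Retinoic acid made in the somites opposes FGF and Wnt from the tailbud.

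Levels are given in CPM, the share of a library's counts on library sizes scaled between samples. The differences are edgeR quasi-likelihood log2 fold changes of 96 h over 72 h, with ± giving 1 standard error. Genes were called at a Benjamini-Hochberg adjusted p under 0.05 over the 16041 genes tested, and "rose" or "fell" is used for called genes only. Total counts ran from 14841728 to 24001928 in the 6 libraries. Replicate 3 stood apart at both ages. The chi-square per degree of freedom of the counts was 4.81 between replicates 1 and 2 at 72 h and 2.58 at 96 h, against 16.2 to 19.15 and 24.7 to 28.4 for pairs with replicate 3. At 96 h, replicate 3 was at least 2-fold above both others at 103 and below both at 201 of 10699 genes with a mean of 5 CPM or more, while replicates 1 and 2 were 2-fold apart at 0. Where leaving out 1 library moved a called fold change by over 1.5 times or changed a call, the log2 fold change without it follows after a semicolon in the same brackets. The adjusted p of any other setting that ended or made the call of a named gene follows there too. Of the markers fixed for each cell type, Uncx (somite), Olig2 (neural), Cdh5 (endothelium), Nkx2-5 and Tbx5 (cardiac), Lum (feeder) and Afp (extraembryonic endoderm) did not pass the filter on low counts. Pluripotency, streak, presomitic and tailbud markers were detected in every library of at least 1 age.

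Of the tested genes, 4410 (27.5%) rose and 4392 (27.4%) fell over the 24 h, so 54.9% were called, and the median log2 fold change over all genes was -0.01. The called share was 49.0% to 55.4% with 1 library left out, 46.3% with only the groups compared in the fit, and 46.6% and 46.8% with limma on the deposited FPKM of the same genes. The libraries of the ages did not overlap at 8987 genes (56.0%), of which those higher at 96 h were 27.9% of all tested. Numbers were balanced at small changes and one-sided at large ones. At least 2-fold changes numbered 1349 up (8.41%) and 1327 down (8.27%), 4-fold changes 557 and 387, 8-fold changes 287 and 106, 16-fold changes 157 and 20, and 64-fold changes 47 and 1. A mean under 1 CPM at 72 h and of at least 10 CPM at 96 h was found for 47 genes, 10 of them Hox genes. No gene made the reverse move at these limits. Leaving out both control libraries numbered 3 gave 49 and 0. A gene that passes the filter on low counts only through its 96 h libraries has to be higher there, so counts over the members of a list describe the list and support nothing further. Of 733 list names found in the count table, 663 passed that filter. Every list count below is to be set beside the 27.5% up and 27.4% down of all tested genes. A list near these shares moved no more than genes in general. Protein-coding genes were called at 58.8% (3975 up and 4049 down of 13651), and processed pseudogenes far less often (16 up and 52 down of 524). Among 293 antisense genes, 72 rose and 30 fell. In bulk RNA, a change in the share of cells of a type and a change in RNA per cell cannot be told apart, here and in all that follows.

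**Figure D1:**
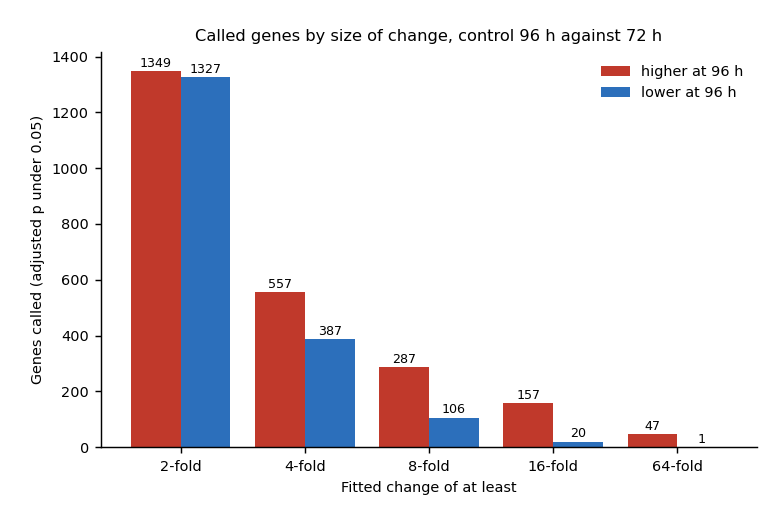
Number of genes called higher (red) or lower (blue) at 96 h against 72 h in control gastruloids, at fold changes of at least 2, 4, 8, 16 and 64. The counts are 1349 and 1327 at 2-fold and 47 and 1 at 64-fold, so the asymmetry grows with the size of the change.

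Some of the larger single changes come first. Arg1, which encodes the liver-type arginase, had 0.0533, 0.0521 and 0.455 CPM at 72 h and 149, 156 and 79.2 CPM at 96 h (log2 fold change 9.51 ± 0.42, adjusted p = 3.00e-12; 11.08 without replicate 3 of 72 h). Eomes, the T-box factor of the early streak and definitive endoderm, fell from 125, 122.5 and 26.3 CPM at 72 h to 3.86, 2.88 and 0.624 CPM at 96 h (log2 fold change -5.12 ± 0.49, adjusted p = 7.35e-08), with replicate 3 lowest at both ages. Bcl11b, a zinc finger repressor, went from 17.0, 15.1 and 10.7 CPM at 72 h to 1.504, 1.19 and 0.686 CPM at 96 h (log2 fold change -3.60 ± 0.24, adjusted p = 6.16e-10). L1td1, an RNA-binding protein of pluripotent cells encoded by a domesticated transposon, had 506, 551 and 531 CPM at 72 h and 52.996, 40.4 and 24.6 CPM at 96 h (log2 fold change -3.73 ± 0.16, adjusted p = 1.67e-12). The groups did not overlap for any of these. By gain in CPM, which also scales with transcript length, Fn1 (fibronectin) came first, with 226, 231 and 211 CPM at 72 h and 1880.1, 2115 and 687 CPM at 96 h (log2 fold change 2.81 ± 0.25, adjusted p = 3.60e-08). Grsf1, an RNA-binding protein, followed with 277, 369 and 512 CPM at 72 h and 1556, 1595 and 1553 CPM at 96 h (log2 fold change 2.02 ± 0.13, adjusted p = 4.09e-10), and its 6 libraries fell into well separated groups. The glucose transporter Slc2a1 went from 190.3, 188 and 332 CPM at 72 h to 1204, 1143 and 1813 CPM at 96 h (log2 fold change 2.55 ± 0.18, adjusted p = 1.67e-09). The losses in CPM were led by Pou5f1, described with the pluripotency genes below, and included the kinase Pim2. It had 1009, 1013 and 912 CPM at 72 h and 151, 136 and 68.2 CPM at 96 h (log2 fold change -3.04 ± 0.17, adjusted p = 8.82e-11). The ferritin light chain Ftl1 had 1786, 1575 and 1584 CPM at 72 h and 1022, 923 and 767 CPM at 96 h (log2 fold change -0.87 ± 0.08, adjusted p = 7.70e-08). The chaperones Hsp90ab1 and Hsp90aa1 fell by smaller ratios (log2 fold changes -0.16 ± 0.04 and -0.49 ± 0.06; Hsp90ab1 adjusted p from 0.0505 to 0.159 in 3 of 3 limma fits on FPKM).

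Presomitic mesoderm genes made some of the largest rises. Of 10 tested genes, 8 rose and 0 fell, with a median log2 fold change of 5.23. The factors that make presomitic mesoderm came first. Tbx6, the T-box factor that turns tailbud progenitors to mesoderm, was at 0.968, 0.594 and 0.962 CPM at 48 h, 1.49, 1.98 and 1.30 CPM at 72 h and 243, 261 and 98.5 CPM at 96 h (log2 fold change 6.96 ± 0.34, adjusted p = 1.05e-11). Msgn1, a bHLH factor downstream of Wnt and Tbx6, was at 0.0509, 0.0990 and 0 CPM at 48 h, 0.107, 0.782 and 0.130 CPM at 72 h and 194, 206 and 46.1 CPM at 96 h (log2 fold change 8.68 ± 0.60, adjusted p = 1.12e-09; 10.23 without replicate 2 of 72 h). Both were low through the end of the pulse and high a day later, and replicate 3 had the lowest 96 h value of each. Cited1, a transcriptional coactivator, moved from 2.51, 3.44 and 2.40 CPM at 72 h to 94.5, 103 and 37.0 CPM at 96 h (log2 fold change 4.80 ± 0.30, adjusted p = 3.29e-10). Rspo3, a secreted amplifier of Wnt signals, reached 194, 209 and 147 CPM at 96 h (log2 fold change 5.29 ± 0.18, adjusted p = 1.41e-13). Pcdh8 (paraxial protocadherin) was the exception, with 9.70, 10.6 and 10.397 CPM at 72 h and 13.1, 11.1 and 3.49 CPM at 96 h and overlapping libraries (adjusted p = 0.737). Mesp2, which sets segment boundaries, stayed low at 0.640, 0.156 and 0.975 CPM at 72 h and 1.06, 1.63 and 0.312 CPM at 96 h and was not called (adjusted p = 0.140; 1.35 at adjusted p = 0.0412 without replicate 3 of 72 h and 1.21 at adjusted p = 0.0118 without replicate 3 of 96 h), and Ripply2 did not pass the filter. Summed over the list, presomitic genes came to 43.4, 51.8 and 50.6 CPM at 72 h and 1427, 1483 and 749 CPM at 96 h, and replicate 3 was below both others at 8 of the 9 members that reached 1 CPM at 96 h.

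The segmentation clock is a Notch-driven oscillator in which Hes7 represses its own gene and Lfng, a glycosyltransferase, modifies Notch. Over the Notch and clock genes, 9 of 12 tested members rose and 2 fell, with a median log2 fold change of 2.47. The counts became 9 higher and 1 lower without replicate 1 of 72 h or replicate 1 of 96 h or replicate 2 of 96 h. Counts were 9 higher and 1 lower with only the groups compared in the fit or limma on FPKM. The ligand Dll1 had 6.02, 7.35 and 13.9 CPM at 72 h and 400.0, 411 and 200.2 CPM at 96 h (log2 fold change 5.25 ± 0.26, adjusted p = 1.33e-11). Dll3, which dampens Notch in the same cell, had 17.6, 19.7 and 16.2 CPM at 72 h and 122, 109 and 65.6 CPM at 96 h (log2 fold change 2.47 ± 0.17, adjusted p = 9.53e-10). Among the receptors, Notch1 rose (log2 fold change 2.93 ± 0.19), while Notch3 fell (log2 fold change -0.71 ± 0.08) and Notch2 was not called (adjusted p = 0.0950; 0.20 at adjusted p = 0.0192 without replicate 3 of 96 h and adjusted p = 0.0250 with a replicate block). Hes7 had 0.107, 0.417 and 0.715 CPM at 72 h and 117, 119 and 132 CPM at 96 h (log2 fold change 8.26 ± 0.25, adjusted p = 3.63e-14), and here replicate 3 was the highest at 96 h. Lfng had 0.746, 1.20 and 1.30 CPM at 72 h and 48.7, 51.9 and 18.5 CPM at 96 h (log2 fold change 5.21 ± 0.33, adjusted p = 4.21e-10). The feedback gene Nrarp gave 12.1, 11.05 and 9.36 CPM at 72 h and 60.8, 57.9 and 62.0 CPM at 96 h (log2 fold change 2.47 ± 0.13, adjusted p = 2.60e-11). Hes5, a Notch target also of neural progenitors, rose from 0.213, 0.0521 and 0.325 CPM at 72 h to 5.08, 5.48 and 8.98 CPM at 96 h (log2 fold change 5.05 ± 0.44, adjusted p = 2.03e-08). Hes1, the general Notch target, went the other way at 34.2, 29.5 and 27.3 CPM at 72 h and 21.6, 20.9 and 29.2 CPM at 96 h (log2 fold change -0.35 ± 0.11, adjusted p = 0.0133; -0.26 at adjusted p = 0.0913 without replicate 1 of 72 h, -0.28 at adjusted p = 0.0734 without replicate 1 of 96 h, -0.26 at adjusted p = 0.0791 without replicate 2 of 96 h, adjusted p = 0.0857 with only the groups compared and adjusted p from 0.0654 to 0.0862 in 3 of 3 limma fits on FPKM).

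Promoters of 4 clock and presomitic genes that rose are shown because each holds a motif of a Notch partner. They were chosen for that after their values were seen. The sequences are the 250 bases before the RefSeq start on GRCm38.p6, 5′ to 3′ on the gene's strand. Capitals mark matches on either strand to RBPJ (GTGGGAA), the DNA-binding partner of Notch, to CDX (TTTATNG) and to TCF/LEF (CTTTGAT).
Hes7 (chr11:69120203-69120452, plus strand): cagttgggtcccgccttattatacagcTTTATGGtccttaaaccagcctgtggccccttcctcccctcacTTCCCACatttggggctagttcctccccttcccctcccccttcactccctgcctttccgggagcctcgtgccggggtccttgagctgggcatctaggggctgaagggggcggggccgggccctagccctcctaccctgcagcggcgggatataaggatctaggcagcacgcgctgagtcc
Lfng (chr5:140607091-140607340, plus strand): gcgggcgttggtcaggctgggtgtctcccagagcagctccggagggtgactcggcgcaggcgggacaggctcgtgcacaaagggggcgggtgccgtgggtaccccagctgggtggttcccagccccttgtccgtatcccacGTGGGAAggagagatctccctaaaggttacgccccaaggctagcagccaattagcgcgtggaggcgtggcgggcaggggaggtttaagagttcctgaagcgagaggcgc
Hes5 (chr4:154960673-154960922, plus strand): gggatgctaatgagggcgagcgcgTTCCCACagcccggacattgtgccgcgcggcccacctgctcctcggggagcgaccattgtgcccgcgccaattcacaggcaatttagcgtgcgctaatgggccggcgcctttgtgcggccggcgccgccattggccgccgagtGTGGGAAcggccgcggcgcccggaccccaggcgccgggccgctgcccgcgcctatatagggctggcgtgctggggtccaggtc
Msgn1 (chr12:11208949-11209198, minus strand): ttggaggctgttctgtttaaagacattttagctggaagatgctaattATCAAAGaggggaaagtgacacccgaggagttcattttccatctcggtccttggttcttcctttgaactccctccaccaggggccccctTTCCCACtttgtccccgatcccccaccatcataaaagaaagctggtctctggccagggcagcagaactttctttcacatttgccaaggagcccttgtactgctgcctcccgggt
The Hes7 window held RBPJ letters 174 to 180 bases and CDX letters 217 to 223 bases before the start. Lfng held RBPJ letters at 103 to 109 bases, and Hes5 held them at 220 to 226 and at 77 to 83 bases. In Msgn1, the TCF/LEF letters lay 197 to 203 bases and the RBPJ letters 108 to 114 bases before the start. The RBPJ letters were in 3 of 10 Notch and clock promoters matched by symbol, and in 6.58% of the promoters of all 11572 tested genes matched. Genes that rose had them at 6.77% (of 3323) and genes that fell at 6.14% (of 3371), and those up or down at least 4-fold at 7.49% (of 374) and 4.73% (of 275). The TCF/LEF letters were in 2.81% of all promoters, 2.92% of those of rising genes and 4.81% of those of genes up at least 4-fold. The CDX letters were in 7.25%, 7.64% and 11.5%, and T-box letters (GGTGTGA) in 3.53%, 3.40% and 5.61%. In the genes down at least 4-fold, the TCF/LEF letters were in 4.0%, the T-box letters in 7.27% and the CDX letters in 8.73%, so these letters were above their share of all promoters on both sides. The octamer letters (TGCAAAT) were in 3.18% of all promoters, 4.28% of those up and 5.09% of those down at least 4-fold. The FOXH1 letters (AATCCAC) were in 2.05% of all promoters, 1.72% of those of all falling genes and 2.91% of those down at least 4-fold. A match is letters in a window and not a binding site, and in the sequences shown no match overlaps another.

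Somite genes were partly on. In that list 4 of 7 tested members rose and 1 fell, with a median log2 fold change of 5.29, while 5 members (Meox2, Uncx, Pax3, Pax9 and Tbx18) did not pass the filter. Meox1, an early somite homeobox gene, had 0.0533, 0 and 0.130 CPM at 72 h and 16.9, 19.9 and 6.05 CPM at 96 h, from 3 counts over the 72 h group to 881 at 96 h, a ratio of 265-fold (95% counting interval 90.5 to 1289). With 1 library left out, this ratio for Meox1 was 169.8-fold without replicate 2 of 72 h and 566-fold without replicate 3 of 72 h. Foxc1, a forkhead factor of paraxial mesoderm, had 0.800, 1.25 and 0.715 CPM at 72 h and 49.3, 48.1 and 12.4 CPM at 96 h (log2 fold change 5.29 ± 0.44, adjusted p = 1.26e-08). Foxc2, its close relative, had 0 counts at 72 h and 11.7, 12.3 and 2.81 CPM at 96 h. With the 72 h group set to a floor of 3 counts in all, that is at least 169-fold higher. With 1 library left out, this bound for Foxc2 was 109-fold without replicate 1 of 72 h and 108-fold without replicate 2 of 72 h. Pax1, of the later sclerotome, went the other way, from 23 counts over the 72 h group to 3 at 96 h (0.373, 0.417 and 0.520 CPM at 72 h and 0, 0.0543 and 0.125 CPM at 96 h). Tcf15 (paraxis) had 1.17, 0.990 and 1.82 CPM at 72 h and 2.36, 1.57 and 1.12 CPM at 96 h and was not called (adjusted p = 0.180; 0.68 at adjusted p = 0.0449 without replicate 3 of 72 h and 0.63 at adjusted p = 0.0378 without replicate 3 of 96 h). At 5 of the 5 somite genes whose mean reached 1 CPM at 96 h, replicate 3 was below both others. The list summed to 3.94, 4.17 and 5.07 CPM at 72 h and 494, 538 and 64.9 CPM at 96 h, of which Aldh1a2, the retinoic acid enzyme described below, gave 413, 455 and 41.8 CPM at 96 h.

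**Figure D2:**
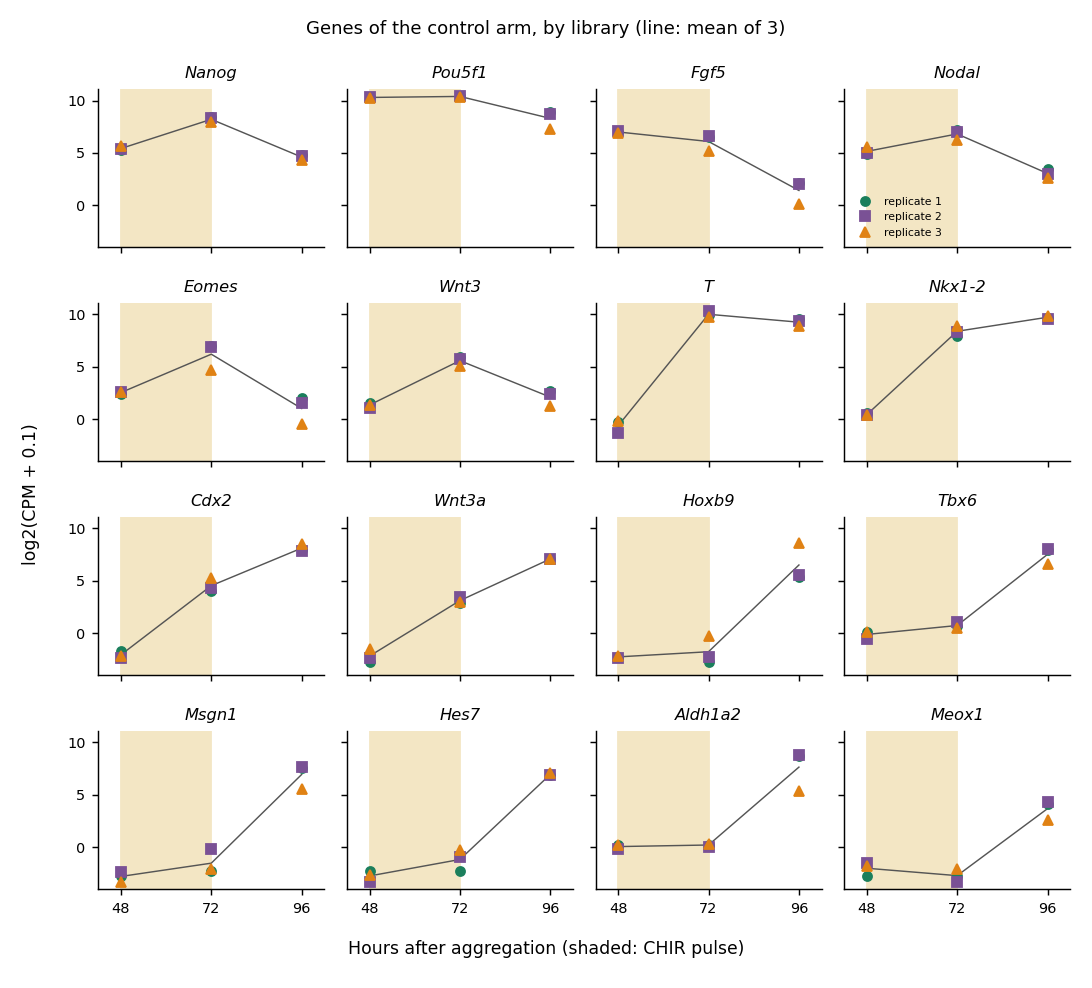
log2(CPM + 0.1) of 16 genes in each control library at 48, 72 and 96 h, with the CHIR pulse shaded, 1 symbol per replicate and the line through the means. Tbx6, Msgn1, Hes7, Aldh1a2, Meox1 and Hoxb9 are low at 48 and 72 h and high at 96 h, Nanog, Eomes, Wnt3 and Nodal peak at 72 h, and T is high at both later ages.

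Tailbud genes rose almost throughout. Of 15 genes, 14 rose and 1 fell (median 1.70), against 27.5% and 27.4% of all genes. Counts were 11 higher and 1 lower with only the groups compared in the fit or 2 of 3 limma fits on FPKM. Without replicate 3 of 96 h, 12 were higher and 1 lower. T was the 1 that fell, at 0.713, 0.297 and 0.769 CPM at 48 h, 1008, 1263 and 872 CPM at 72 h and 747, 653 and 473 CPM at 96 h (log2 fold change -0.75 ± 0.15, adjusted p = 0.000303), so it stayed far above its 48 h level. Nkx1-2, a homeobox gene of the stem zone, kept rising, at 1.37, 1.19 and 1.22 CPM at 48 h, 248, 328 and 468 CPM at 72 h and 832, 782 and 949 CPM at 96 h (log2 fold change 1.30 ± 0.16, adjusted p = 1.26e-06). The caudal factors, which switch on trunk Hox genes, differed in replicate behaviour. Cdx2 had 0.204, 0.0990 and 0.128 CPM at 48 h, 16.5, 19.8 and 37.8 CPM at 72 h and 248, 237 and 364 CPM at 96 h (log2 fold change 3.54 ± 0.22, adjusted p = 2.47e-10). Cdx1 had 31.3, 49.1 and 132 CPM at 72 h and 496, 501 and 322 CPM at 96 h (log2 fold change 2.65 ± 0.34, adjusted p = 5.27e-06; 3.45 without replicate 3 of 72 h). Cdx4 had 1.01, 1.62 and 2.01 CPM at 72 h and 17.8, 21.01 and 126 CPM at 96 h (log2 fold change 5.15 ± 0.64, adjusted p = 2.15e-06; 3.66 without replicate 3 of 96 h), and most of its level came from replicate 3. Cyp26a1, which breaks down retinoic acid at the tail end, had 2.03, 1.72 and 0.780 CPM at 72 h and 17.6, 18.4 and 25.4 CPM at 96 h (log2 fold change 3.72 ± 0.25, adjusted p = 8.40e-10). Greb1, a cofactor expressed in the tailbud, had 41.8, 40.2 and 45.6 CPM at 72 h and 192, 216 and 278 CPM at 96 h (log2 fold change 2.43 ± 0.12, adjusted p = 2.16e-11). Evx1, a posterior streak homeobox gene, had 75.5, 93.96 and 41.3 CPM at 72 h and 98.2, 83.2 and 147 CPM at 96 h, with overlapping libraries, and was called (log2 fold change 0.63 ± 0.23; 0.36 at adjusted p = 0.128 without replicate 3 of 72 h, 0.37 at adjusted p = 0.119 without replicate 3 of 96 h, adjusted p = 0.135 with only the groups compared and adjusted p from 0.0585 to 0.0785 in 2 of 3 limma fits on FPKM). At 96 h, replicate 3 was above both others at 11 of the 15 tailbud genes.

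Hox genes of groups 1 to 9 rose. A member near 0 at 72 h passed the filter through other libraries, so the counts are a description. In groups 1 to 4, 11 of 11 tested members rose and 0 fell, with a median log2 fold change of 3.04. With limma on FPKM, 9 of the 11 rose, and the deposited FPKM list Hoxa4 at 0 in all 96 h libraries and Hoxa2 at 0 in 2 of them. DESeq2's Wald test also called 9, with no adjusted p for Hoxb1 and Hoxb2. In groups 5 to 9, 12 of 12 tested members rose and 0 fell, with a median log2 fold change of 8.20. DESeq2's Wald test called 10 of these, and 11 rose with only the groups compared or with limma on FPKM. On log2(FPKM + 0.1), 1 fell. In groups 10 to 13, 10 of 12 genes did not pass the filter and neither of the others was called (Hoxc13 adjusted p = 0.657, Hoxd13 0.158). Levels of the anterior genes already differed between the 72 h libraries. Hoxb1 had 18.98, 29.9 and 164 CPM at 72 h and 399, 404 and 279 CPM at 96 h (log2 fold change 2.37 ± 0.48, adjusted p = 0.000396; 3.88 without replicate 3 of 72 h). Its replicate 3 at 72 h stood above the other libraries of that age and below those of 96 h. The sum over groups 1 to 4 was 23.9, 40.2 and 243 CPM at 72 h and 705, 703 and 715 CPM at 96 h, and replicate 3 was above both others at 6 of the 6 members that reached 1 CPM at 72 h. Hoxb4 had 0, 0.208 and 1.04 CPM at 72 h and 41.9, 47.8 and 55.9 CPM at 96 h (log2 fold change 6.98 ± 0.40, adjusted p = 9.87e-11; 6.36 without replicate 1 of 72 h and 8.75 without replicate 3 of 72 h). Hoxd3 had 0 counts at 72 h and 7.93, 8.47 and 6.42 CPM at 96 h, or at least 137-fold higher over that floor. With 1 library left out, this bound for Hoxd3 was 88.6-fold without replicate 1 of 72 h and 87.5-fold without replicate 2 of 72 h. Hoxd4 likewise had 0 counts at 72 h and 6.22, 6.57 and 11.97 CPM at 96 h.

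Among trunk Hox genes, the 96 h libraries split. Hoxb9 had 0.0533, 0.104 and 0.715 CPM at 72 h and 41.3, 46.0 and 395 CPM at 96 h (log2 fold change 9.21 ± 1.04, adjusted p = 6.36e-07; 10.86 without replicate 3 of 72 h and 7.34 without replicate 3 of 96 h), so replicates 1 and 2 were alike and replicate 3 was several times higher. Hoxc8 was listed at 0 counts in all 72 h libraries and at 1.54, 1.79 and 88.9 CPM at 96 h, or at least 450.4-fold higher over that floor. With 1 library left out, this bound for Hoxc8 was 292-fold without replicate 1 of 72 h, 288-fold without replicate 2 of 72 h, 752-fold without replicate 1 of 96 h and 29.3-fold without replicate 3 of 96 h. With only the groups compared in the fit, Hoxc8 was not called (adjusted p = 0.0556). Hoxb8 had 0.160, 0.156 and 0.650 CPM at 72 h and 56.2, 58.5 and 229 CPM at 96 h (log2 fold change 8.53 ± 0.66, adjusted p = 4.49e-09; 9.43 without replicate 3 of 72 h and 7.55 without replicate 3 of 96 h). Hoxc6 had 1 count at 72 h and 1.14, 1.79 and 32.2 CPM at 96 h, and Hoxc5 had 1 count and then 12.8, 13.2 and 31.2 CPM. Hoxb5 was even across the 96 h replicates, with 0, 0 and 0.130 CPM at 72 h and 18.2, 16.6 and 16.2 CPM at 96 h. Hoxa7 had 0.533, 0.521 and 2.66 CPM at 72 h and 5.53, 5.21 and 37.2 CPM at 96 h (log2 fold change 3.74 ± 0.68, adjusted p = 0.000134; 4.87 without replicate 3 of 72 h and 2.21 without replicate 3 of 96 h). The authors' FPKM values list Hoxa7 at 0 in the 96 h libraries, and only the counts are used for it here. The sum over groups 5 to 9 was 0.959, 1.56 and 9.68 CPM at 72 h and 197, 205 and 913 CPM at 96 h, and replicate 3 was above both others at 10 of 12 genes. So at 96 h the library highest in trunk Hox genes was the one lowest in presomitic and somite genes. What sets replicate 3 apart was not tested. Hoxa3, Hoxa4, Hoxa5 and Hoxa7 overlap the antisense gene Hoxaas3, Hoxb2 and Hoxb3 overlap Hoxb3os, and Hoxb5 and Hoxb6 overlap Hoxb5os. The library kit keeps strand but the strand setting of the counting is not given in the sources used here, so reads from these partners cannot be told apart.

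**Figure D3:**
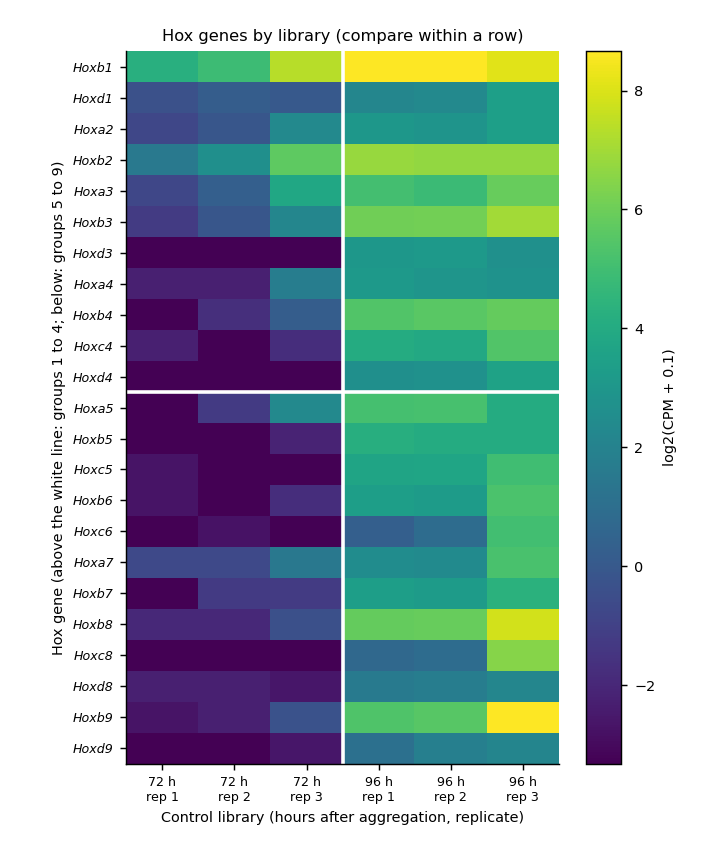
Heat map of log2(CPM + 0.1) for 23 tested Hox genes of groups 1 to 9 (rows, in paralogue order) in the 6 control libraries (columns, white line between 72 h and 96 h). Rows are to be compared across libraries and not with each other. Groups 5 to 9 are dark at 72 h and bright at 96 h, and replicate 3 is brightest for most of groups 1 to 4 at 72 h and for most of groups 5 to 9 at 96 h.

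Hox proteins bind DNA with Pbx, Meis and Pknox partners. In this list, 5 of 8 tested members rose and 0 fell, with a median log2 fold change of 1.29. Meis2 had 4.85, 5.52 and 46.2 CPM at 72 h and 157, 163 and 70.8 CPM at 96 h (log2 fold change 2.85 ± 0.53, adjusted p = 0.000192; 4.65 without replicate 3 of 72 h). Meis1 had 0.267, 0.469 and 0.910 CPM at 72 h and 9.55, 10.5 and 4.61 CPM at 96 h (log2 fold change 3.95 ± 0.36, adjusted p = 4.13e-08). Pknox2 had 10.9, 13.4 and 15.01 CPM at 72 h and 82.6, 82.5 and 62.2 CPM at 96 h (log2 fold change 2.54 ± 0.15, adjusted p = 2.32e-10). Pknox1 was not called (adjusted p = 0.374).

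The Wnt pathway was read from ligands to targets. CHIR acts below the receptors, and by the labels its pulse ended 24 h before the later libraries. Wnt ligands and R-spondins moved in both directions, as 7 of 11 tested members rose and 3 fell, with a median log2 fold change of 1.35. Wnt3, which starts the streak in the embryo, had 2.90, 2.08 and 2.5001 CPM at 48 h, 62.8, 53.3 and 33.5 CPM at 72 h and 6.26, 5.21 and 2.31 CPM at 96 h (log2 fold change -3.39 ± 0.24, adjusted p = 1.24e-09). Wnt3a, the tailbud ligand, had 0.0509, 0.0990 and 0.256 CPM at 48 h, 7.52, 10.9 and 7.603 CPM at 72 h and 134, 136 and 138 CPM at 96 h (log2 fold change 3.96 ± 0.15, adjusted p = 4.15e-13). The non-canonical ligands Wnt5a and Wnt5b rose (log2 fold changes 4.67 ± 0.25 and 1.70 ± 0.09). Wnt8a, a posterior ligand, had 179, 184 and 352 CPM at 72 h and 333, 299 and 342 CPM at 96 h and was not called (adjusted p = 0.0513; 0.83 at adjusted p = 1.53e-05 without replicate 3 of 72 h, adjusted p = 0.0476 with DESeq2 size factors, adjusted p = 1.98e-14 with no filter, adjusted p = 0.0491 with a filter of 1 CPM in 3 libraries and adjusted p = 0.00372 with a replicate block). The Wnt8a libraries overlapped. Its log2 fold change was 0.45 both with no filter and in the main fit, so there only the adjusted p moved, and why was not tested. Wnt11 and Rspo1 fell (log2 fold changes -2.65 ± 0.29 and -1.29 ± 0.14). So the streak ligand fell while the tailbud ligand rose.

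Of 15 Wnt receptors, 7 rose and 4 fell (median 0.18), against 27.5% and 27.4% of all tested genes. Fzd10 had 139, 160.2 and 208 CPM at 72 h and 357, 356 and 429.8 CPM at 96 h (log2 fold change 1.17 ± 0.14, adjusted p = 1.11e-06), and Fzd1 rose (log2 fold change 1.76 ± 0.13). The receptors Ror1 and Fzd5 fell (log2 fold changes -1.65 ± 0.18 and -0.84 ± 0.11). Secreted Wnt inhibitors gave 4 risen and 2 fallen of 10 tested, and 4 higher and 1 lower without replicate 2 of 96 h. Frzb had 2.13, 3.34 and 0.910 CPM at 72 h and 40.7, 45.3 and 21.5 CPM at 96 h (log2 fold change 4.04 ± 0.29, adjusted p = 1.62e-09), and Sfrp1 had 7.09, 8.18 and 8.32 CPM at 72 h and 33.9, 34.9 and 38.8 CPM at 96 h (log2 fold change 2.19 ± 0.10, adjusted p = 5.61e-12). Dkk1, an antagonist of LRP receptors and a Wnt target, had 6.66, 10.01 and 4.35 CPM at 72 h and 18.1, 15.9 and 8.36 CPM at 96 h (log2 fold change 1.01 ± 0.27, adjusted p = 0.00374; adjusted p = 0.0539 with only the groups compared).

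Wnt targets and feedback genes mostly rose after the pulse. In this list, 10 of 14 tested members rose and 2 fell, with a median log2 fold change of 0.58. Axin2, the standard readout of beta-catenin activity, had 12.02, 12.3 and 13.7 CPM at 48 h, 215, 234 and 196 CPM at 72 h and 259.7, 267 and 270.1 CPM at 96 h (log2 fold change 0.31 ± 0.06, adjusted p = 0.000219). Sp5 had 50.9, 56.3 and 49.0 CPM at 72 h and 106, 95.7 and 93.97 CPM at 96 h (log2 fold change 0.92 ± 0.13, adjusted p = 1.56e-05). Nkd1 had 40.6, 41.1 and 39.1 CPM at 72 h and 87.2, 85.3 and 82.1 CPM at 96 h (log2 fold change 1.08 ± 0.09, adjusted p = 1.60e-08), and Tnfrsf19 rose (log2 fold change 0.97 ± 0.08). Znrf3, which removes Frizzled from the surface, fell (log2 fold change -0.55 ± 0.09). Of the transcriptional effectors, 3 of 8 rose and 4 fell. Lef1 had 139, 148 and 165 CPM at 72 h and 258, 255 and 184 CPM at 96 h (log2 fold change 0.62 ± 0.10, adjusted p = 4.81e-05) and Tcf7 had 177, 182 and 178 CPM at 72 h and 130.01, 129 and 121 CPM at 96 h (log2 fold change -0.50 ± 0.05, adjusted p = 7.55e-08), so the LEF1 and TCF7 genes moved in opposite directions. Tcf7l1, the repressor of the pluripotent state, fell (log2 fold change -0.94 ± 0.16).

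FGF genes mostly rose. Of the ligands, 6 of 9 tested members rose and 2 fell, with a median log2 fold change of 1.67. The counts became 6 higher and 1 lower without both libraries numbered 3 or replicate 1 of 72 h or replicate 3 of 72 h or replicate 1 of 96 h, and 5 higher and 1 lower without replicate 3 of 96 h. Fgf3 had 0.320, 0.521 and 0.455 CPM at 72 h and 54.2, 56.0 and 40.7 CPM at 96 h (log2 fold change 6.85 ± 0.23, adjusted p = 1.01e-13). Fgf4 had 6.50, 6.57 and 8.25 CPM at 72 h and 78.2, 82.5 and 60.3 CPM at 96 h (log2 fold change 3.39 ± 0.12, adjusted p = 2.19e-13), and Fgf15 rose (log2 fold change 2.79 ± 0.16). Fgf5, the ligand of the primed epiblast, had 132, 134 and 119 CPM at 48 h, 92.7, 94.8 and 35.9 CPM at 72 h and 4.27, 3.91 and 0.998 CPM at 96 h (log2 fold change -4.53 ± 0.33, adjusted p = 2.67e-09). Fgf8, the tailbud ligand, had 43.2, 51.1 and 48.1 CPM at 72 h and 63.1, 50.8 and 101.7 CPM at 96 h with overlapping libraries (log2 fold change 0.59 ± 0.19, adjusted p = 0.0112; 0.27 at adjusted p = 0.0644 without replicate 3 of 96 h, adjusted p = 0.0728 with only the groups compared and adjusted p from 0.0592 to 0.0804 in 2 of 3 limma fits on FPKM). Of the receptors, 4 of 5 rose and Fgfr4 fell (log2 fold change -1.10 ± 0.32; adjusted p from 0.146 to 0.424 in 3 of 3 limma fits on FPKM). Counts were 2 higher and 0 lower with limma on FPKM. Without replicate 1 or 2 of 96 h, 3 rose. Fgfr1 had 239, 241 and 269.5 CPM at 72 h and 412, 413 and 219 CPM at 96 h (log2 fold change 0.48 ± 0.14, adjusted p = 0.00899; 0.34 at adjusted p = 0.0615 without replicate 1 of 96 h, 0.35 at adjusted p = 0.0614 without replicate 2 of 96 h, adjusted p = 0.120 with only the groups compared and adjusted p from 0.0509 to 0.0643 in 3 of 3 limma fits on FPKM). Feedback genes of ERK, the kinase below FGF receptors, gave 8 risen and 2 fallen of 11 (median 0.60). Spry4 had 43.1, 43.6 and 34.5 CPM at 72 h and 115, 117 and 105 CPM at 96 h (log2 fold change 1.47 ± 0.08, adjusted p = 1.01e-10), and Etv4 had 65.9, 74.1 and 74.9 CPM at 72 h and 175, 179 and 305 CPM at 96 h (log2 fold change 1.61 ± 0.15, adjusted p = 5.24e-08). Etv5 fell from 289.8, 280.0 and 278 CPM at 72 h to 201, 202 and 203 CPM at 96 h (log2 fold change -0.48 ± 0.04, adjusted p = 2.60e-09), so the PEA3 relatives Etv4 and Etv5 went in opposite directions.

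Retinoic acid genes mostly rose, with 9 of 11 up and 0 down (median 3.38). Aldh1a2, which makes retinoic acid in paraxial mesoderm, had 1.02, 0.792 and 1.03 CPM at 48 h, 1.07, 0.938 and 1.17 CPM at 72 h and 413, 455 and 41.8 CPM at 96 h (log2 fold change 8.17 ± 0.75, adjusted p = 4.84e-08). Its replicate 3 at 96 h lay far below the other 96 h libraries and above all 72 h ones. The binding proteins Crabp1 and Crabp2 rose (log2 fold changes 4.78 ± 0.25 and 3.38 ± 0.13). At 96 h Crabp1 had 92.1, 95.9 and 191 CPM and Crabp2 had 165, 167 and 227 CPM, with replicate 3 highest for both. Rarb, a receptor gene that is itself a target of retinoic acid, had 0.0533, 0.156 and 0.845 CPM at 72 h and 8.33, 9.77 and 2.31 CPM at 96 h (log2 fold change 4.39 ± 0.62, adjusted p = 1.64e-05; 5.94 without replicate 3 of 72 h and listed at 0 in the deposited FPKM of both ages). Stra6, the retinol transporter, had 1.65, 1.93 and 8.90 CPM at 72 h and 34.8, 38.4 and 60.4 CPM at 96 h (log2 fold change 3.48 ± 0.40, adjusted p = 6.87e-07; 4.62 without replicate 3 of 72 h). Rdh10 was not called (adjusted p = 0.151; 0.38 at adjusted p = 0.00292 without replicate 3 of 72 h and 0.28 at adjusted p = 0.0470 without replicate 3 of 96 h), nor was Rara (adjusted p = 0.148; 0.43 at adjusted p = 2.97e-05 without replicate 3 of 72 h and adjusted p = 0.0292 with no filter). Aldh1a3, Cyp26b1 and Cyp26c1 did not pass the filter.

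Nodal signalling genes mostly fell. Of 9 genes, 2 rose and 6 fell, with a median of -0.86. Nodal, a TGF-beta ligand of streak and endoderm, had 30.2, 31.3 and 46.7 CPM at 48 h, 148, 129 and 73.8 CPM at 72 h and 11.1, 7.82 and 6.17 CPM at 96 h (log2 fold change -3.77 ± 0.23, adjusted p = 2.50e-10). Its co-receptor gene Tdgf1 (Cripto) had 180.3, 189.9 and 104 CPM at 72 h and 16.5, 13.5 and 8.17 CPM at 96 h (log2 fold change -3.60 ± 0.28, adjusted p = 5.49e-09). The inhibitors Lefty1 and Lefty2 fell (log2 fold changes -2.28 ± 0.22 and -0.86 ± 0.17). The receptor gene Acvr2b rose (log2 fold change 0.93 ± 0.09). Smad7, an inhibitor induced by TGF-beta and Nodal signals, had 21.6, 18.3 and 17.9 CPM at 72 h and 4.55, 4.07 and 4.30 CPM at 96 h (log2 fold change -2.16 ± 0.10, adjusted p = 9.53e-12). Pmepa1, also a TGF-beta feedback gene, fell (log2 fold change -3.73 ± 0.28).

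The list of BMP ligands, which also holds Gdf11, gave 3 risen and 0 fallen of 6. Gdf11, not itself a BMP, made its 1 called rise of at least 2-fold. Gdf11, a TGF-beta ligand of the trunk-to-tail transition, had 8.10, 6.25 and 10.397 CPM at 72 h and 33.9, 38.7 and 82.1 CPM at 96 h (log2 fold change 2.65 ± 0.26, adjusted p = 9.28e-08). Bmp4 had 3.30, 2.71 and 2.21 CPM at 72 h and 4.88, 5.21 and 4.99 CPM at 96 h (log2 fold change 0.86 ± 0.19, adjusted p = 0.000716). Bmp7 had 17.1, 20.6 and 18.6 CPM at 72 h and 29.4, 28.3 and 28.9 CPM at 96 h (log2 fold change 0.62 ± 0.10, adjusted p = 4.09e-05). BMP inhibitors gave 4 up and 2 down of 8, and 4 higher and 1 lower without replicate 2 of 72 h. Counts were 2 to 4 higher and 1 to 2 lower with a filter of 1 CPM in 3 libraries or DESeq2's Wald test. Noggin (Nog) had 3 counts over the 72 h group and 84 at 96 h (0.0533, 0.104 and 0 CPM at 72 h and 0.772, 0.706 and 3.24 CPM at 96 h). Response genes gave 4 up and 2 down of 10, with 3 higher and 1 lower without both libraries numbered 3 or replicate 1 of 72 h or replicate 2 of 72 h or replicate 3 of 72 h or replicate 3 of 96 h. Counts were 3 to 4 higher and 1 lower with only the groups compared in the fit, 1 of 3 limma fits on FPKM, DESeq2 size factors, no filter or DESeq2's Wald test. Id1 had 1.97, 2.66 and 1.75 CPM at 72 h and 20.1, 14.7 and 30.8 CPM at 96 h (log2 fold change 3.34 ± 0.25, adjusted p = 3.22e-09). The largest fall of the response list was that of Smad7 (log2 fold change -2.16), given above with the Nodal genes. Of 11 Hedgehog genes, 5 rose and 2 fell. Counts were 5 higher and 1 lower with only the groups compared in the fit or 2 of 3 limma fits on FPKM. The co-receptor Boc had 8.90, 8.60 and 9.16 CPM at 72 h and 26.1, 26.7 and 34.5 CPM at 96 h (log2 fold change 1.71 ± 0.11, adjusted p = 6.83e-10). Of the target genes, Gli1 fell (log2 fold change -0.56 ± 0.12, adjusted p = 0.000726; adjusted p from 0.0639 to 0.0780 in 2 of 3 limma fits on FPKM) and Ptch1 was not called (log2 fold change -0.05 ± 0.05, adjusted p = 0.366). The ligand Shh did not pass the filter.

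**Figure D4:**
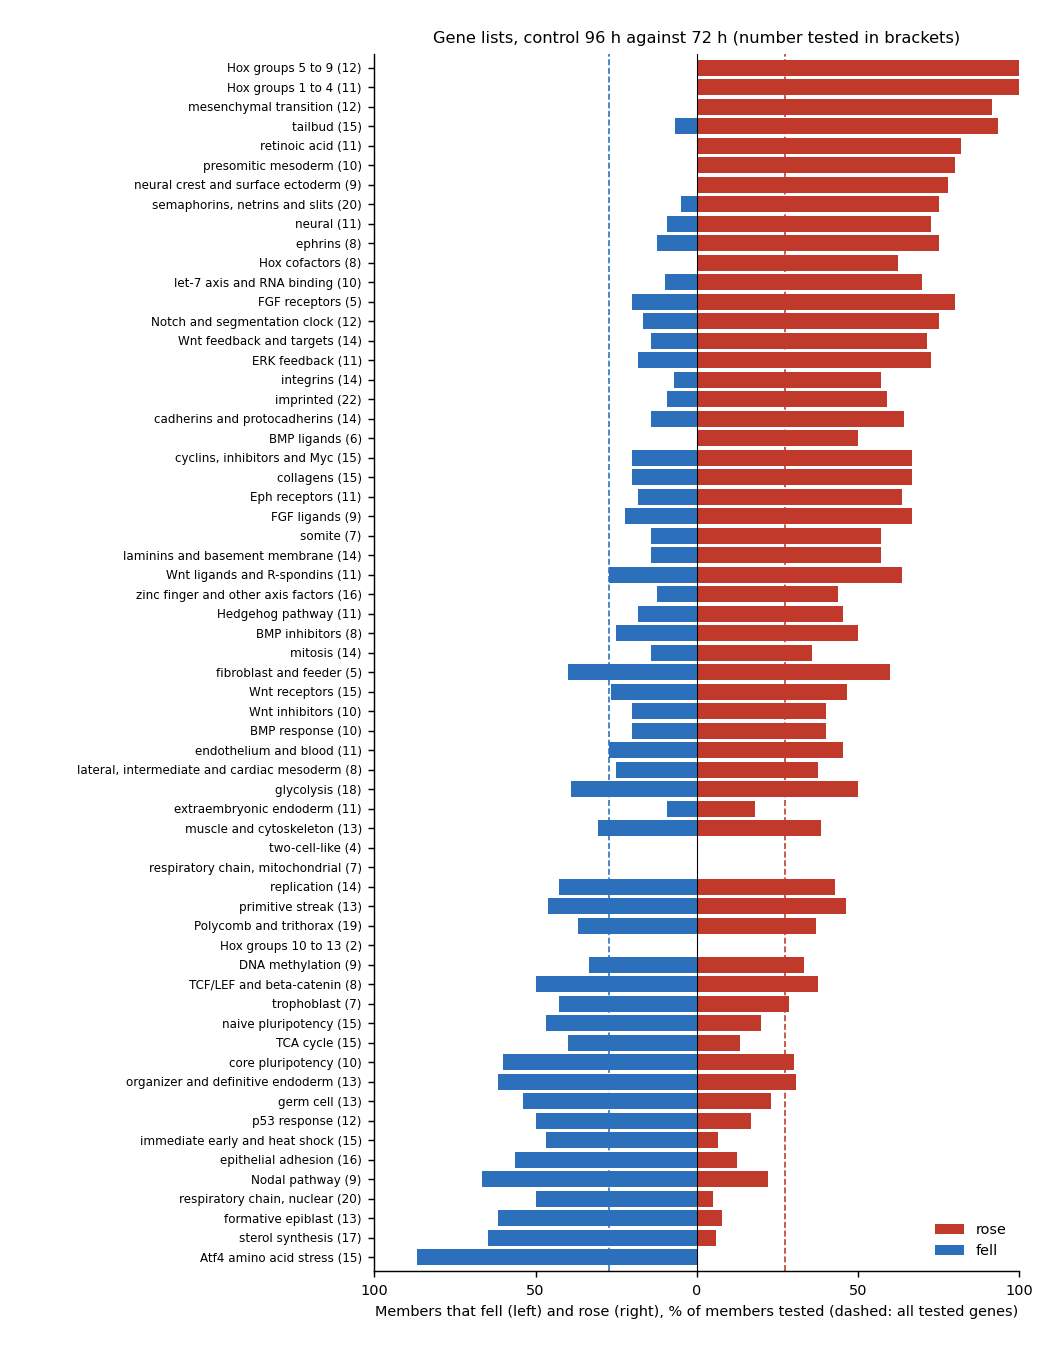
For each of 62 gene lists, the percent of tested members that rose (red, right) and fell (blue, left) from 72 to 96 h in control gastruloids, sorted by their difference; dashed lines mark all tested genes, 27.5% and 27.4%. Hox, mesenchymal, tailbud, retinoic acid and presomitic lists stand at the top, and Atf4, sterol, formative, nuclear respiratory chain and Nodal lists at the bottom.

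Pluripotency genes fell more often than they rose. Of the naive factors, 3 of 15 rose and 7 fell (median -0.35). Their largest rise was that of Prdm14 (log2 fold change 2.78), given below with the germ cell genes. The naive list summed to 164, 180 and 289 CPM at 72 h and 338, 302 and 217 CPM at 96 h, so its sum did not fall with the count of members. The core factors gave 3 up and 6 down of 10 (median -1.21), and the formative factors 1 up and 8 down of 13 (median -1.30). Pou5f1 (Oct4) had 1277, 1278 and 1210.3 CPM at 48 h, 1369, 1360.0 and 1297 CPM at 72 h and 474, 425 and 154 CPM at 96 h (log2 fold change -1.93 ± 0.23, adjusted p = 1.38e-06), and replicate 3 of 96 h was far below the others. Nanog peaked at the end of the pulse, with 39.2, 40.1 and 49.7 CPM at 48 h, 342, 313 and 242 CPM at 72 h and 28.2, 26.1 and 19.3 CPM at 96 h (log2 fold change -3.59 ± 0.13, adjusted p = 2.12e-13). Utf1, a chromatin factor of pluripotent cells, had 51.0, 46.0 and 63.5 CPM at 72 h and 9.96, 7.06 and 7.11 CPM at 96 h (log2 fold change -2.70 ± 0.19, adjusted p = 1.04e-09). Esrrb had 23.3, 21.7 and 33.2 CPM at 72 h and 8.01, 8.31 and 8.73 CPM at 96 h (log2 fold change -1.64 ± 0.13, adjusted p = 9.81e-09). Otx2, the anterior and formative epiblast factor, had 178, 172 and 172 CPM at 48 h, 29.96, 26.3 and 12.996 CPM at 72 h and 2.40, 2.06 and 1.31 CPM at 96 h (log2 fold change -3.55 ± 0.26, adjusted p = 1.99e-09). Sox2, shared with neural and tailbud cells, rose instead, at 28.5, 29.9 and 61.1 CPM at 72 h and 74.7, 63.9 and 131 CPM at 96 h (log2 fold change 1.18 ± 0.25, adjusted p = 0.000511). Klf5, listed as naive, had 14.7, 17.5 and 20.3 CPM at 72 h and 56.0, 55.5 and 19.02 CPM at 96 h (log2 fold change 1.33 ± 0.25, adjusted p = 0.000200), and Gbx2, also a posterior gene, had 47.0, 57.4 and 138 CPM at 72 h and 215, 183 and 143 CPM at 96 h (log2 fold change 1.17 ± 0.25, adjusted p = 0.000690; 1.79 without replicate 3 of 72 h). Lin28a rose (log2 fold change 0.43 ± 0.06) to 1089.8, 1099.8 and 1231 CPM at 96 h.

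DNA methylation genes went both ways, also between paralogues. Of 9, 3 rose and 3 fell, near the 27.5% and 27.4% of all tested genes. Dnmt3b, the de novo methyltransferase of the epiblast, had 1055, 997 and 803 CPM at 72 h and 285, 285 and 284 CPM at 96 h (log2 fold change -1.74 ± 0.07, adjusted p = 8.21e-13). Dnmt3a had 219, 215 and 210.5 CPM at 72 h and 208, 215 and 142 CPM at 96 h and was not called (adjusted p = 0.109; -0.26 at adjusted p = 0.0420 without replicate 1 of 96 h, -0.28 at adjusted p = 0.0210 without replicate 2 of 96 h and adjusted p = 0.00230 with no filter). Among the TET dioxygenases, which oxidise methylcytosine, Tet1 fell (log2 fold change -0.72 ± 0.14) while Tet2 and Tet3 rose (log2 fold changes 1.12 ± 0.22 and 1.25 ± 0.11). Germ cell genes gave 3 up and 7 down of 13 (median -0.36). Mael, Sycp3 and Dazl fell (log2 fold changes -2.78 ± 0.24, -2.54 ± 0.22 and -2.53 ± 0.25). The germ cell specifiers Prdm14, Tfap2c and Prdm1 rose (log2 fold changes 2.78 ± 0.40, 2.12 ± 0.26 and 1.07 ± 0.27; Prdm1 adjusted p = 0.0547 with limma on log2(FPKM + 1) over all genes). Of these, Tfap2c had 1.76, 2.71 and 4.22 CPM at 72 h and 15.8, 12.8 and 8.42 CPM at 96 h. Genes of the 2-cell-like state were near 0, and 0 rose and 0 fell of 4 tested, or 0 higher and 2 lower without both libraries numbered 3 or replicate 3 of 96 h.

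Host transcripts of pluripotency miRNAs fell. The reads lie over hairpin loci in polyA RNA, so they are read as the primary transcript and not as mature miRNA, and the 7 hairpins Mir290a to Mir295 on chr7 share 1 transcript and are not independent. They were chosen after their values were seen. Their summed level was 21.7, 16.8 and 24.6 CPM at 48 h, 3.57, 4.01 and 2.53 CPM at 72 h and 0.610, 0.652 and 0.624 CPM at 96 h, or 183 counts at 72 h and 37 at 96 h. At 96 h, 5 of the 7 were called lower, and at 7 of the 7 every 96 h library was below every 72 h library, beside 27.4% called lower and 28.1% so separated among all tested genes. The deposited FPKM list those named here at 0 in both ages, so they could not be called on that scale. The 3p arms from RefSeq (GRCm38.p6) are printed to show what this transcript encodes, with the seed (bases 2 to 8) in capitals. Mir302b, on chr3, is added for its shared seed.
miR-290a-3p: aAAGUGCCgccuaguuuuaagccc
miR-291a-3p: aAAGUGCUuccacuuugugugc
miR-291b-3p: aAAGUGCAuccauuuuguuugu
miR-293-3p: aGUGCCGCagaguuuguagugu
miR-294-3p: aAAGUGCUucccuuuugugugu
miR-295-3p: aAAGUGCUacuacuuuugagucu
miR-302b-3p: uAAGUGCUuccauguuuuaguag
The seed AAGUGCU is shared by miR-291a-3p, miR-294-3p, miR-295-3p and miR-302b-3p. It is the family known for promoting the stem cell cycle. Mir291b, with the seed AAGUGCA, had 1.39, 1.35 and 0.910 CPM at 72 h and 0.122, 0.163 and 0.125 CPM at 96 h (log2 fold change -3.12 ± 0.41, adjusted p = 4.24e-06; listed at 0 in the deposited FPKM of both ages). Mir295 had 0.746, 0.625 and 0.455 CPM at 72 h and 0.203, 0.163 and 0.0624 CPM at 96 h (log2 fold change -1.98 ± 0.42, adjusted p = 0.000573; listed at 0 in the deposited FPKM of both ages), and Mir293 had 0.640, 0.730 and 0.260 CPM at 72 h and 0.122, 0.163 and 0.125 CPM at 96 h (log2 fold change -1.99 ± 0.47, adjusted p = 0.00149; listed at 0 in the deposited FPKM of both ages). Mir294 fell (log2 fold change -1.91 ± 0.48; -1.38 at adjusted p = 0.0675 without replicate 2 of 72 h and listed at 0 in the deposited FPKM of both ages). Mir302b had 20 counts at 72 h and 3 at 96 h (0.586, 0.469 and 0 CPM at 72 h and 0.0813, 0.0543 and 0 CPM at 96 h), with overlapping libraries. It was called lower (log2 fold change -2.72 ± 0.84, adjusted p = 0.0108). Without replicate 1 of 72 h the call was lost (-2.20, adjusted p = 0.0707), and without replicate 1 of 96 h the change was -3.40. It lies within the gene Larp7, which is on the opposite strand, so it may hold reads of Larp7. Of 17 pluripotency-linked Platr long non-coding RNAs tested, 1 rose and 7 fell (median -0.99), and Platr10 had 201, 212 and 205 CPM at 48 h, 63.96, 58.7 and 69.4 CPM at 72 h and 4.76, 3.69 and 3.30 CPM at 96 h (log2 fold change -4.00 ± 0.10, adjusted p = 1.94e-15).

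Primitive streak genes split evenly, with 6 of 13 up and 6 down. Mixl1 had 89.3, 134 and 22.03 CPM at 72 h and 44.1, 43.8 and 9.79 CPM at 96 h with overlapping libraries (log2 fold change -1.31 ± 0.46, adjusted p = 0.0209; -1.25 at adjusted p = 0.0536 without replicate 1 of 72 h, -0.77 at adjusted p = 0.184 without replicate 2 of 72 h, adjusted p = 0.157 with only the groups compared, adjusted p = 0.0580 with DESeq2's Wald test and adjusted p from 0.104 to 0.133 in 3 of 3 limma fits on FPKM). Gsc, of the anterior streak and organizer, had 5.92, 5.99 and 0.715 CPM at 72 h and 0.447, 0.109 and 0.312 CPM at 96 h (log2 fold change -3.80 ± 0.60, adjusted p = 3.37e-05). Lhx1, also of intermediate mesoderm, rose from 3.89, 5.16 and 0.780 CPM at 72 h to 62.1, 61.9 and 7.23 CPM at 96 h (log2 fold change 3.70 ± 0.58, adjusted p = 3.22e-05), with replicate 3 of 96 h closest to the 72 h libraries. Mesp1, of nascent mesoderm, had 0.426, 0.261 and 0.130 CPM at 72 h and 2.44, 1.68 and 0.935 CPM at 96 h (log2 fold change 2.60 ± 0.43, adjusted p = 5.43e-05). Organizer and definitive endoderm genes gave 4 up and 8 down of 13 (median -0.74). Sox17 had 0.160, 0.521 and 0.325 CPM at 72 h and 4.63, 2.77 and 2.43 CPM at 96 h (log2 fold change 3.28 ± 0.40, adjusted p = 1.79e-06) and Foxa2 had 6.72, 7.66 and 4.35 CPM at 72 h and 4.76, 2.71 and 1.43 CPM at 96 h (log2 fold change -1.02 ± 0.30, adjusted p = 0.00699; adjusted p = 0.0680 with only the groups compared), so the endoderm markers stayed low and moved in opposite directions. Cxcr4, the chemokine receptor of endoderm and mesoderm, had 0.640, 0.521 and 0.390 CPM at 72 h and 22.5, 25.1 and 20.95 CPM at 96 h (log2 fold change 5.43 ± 0.24, adjusted p = 3.17e-12). Cer1 was at or under 0.489 CPM in all 6 libraries, and Shh and Noto did not pass the filter.

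Junction genes of epithelia more often fell, and mesenchymal genes mostly rose. In the epithelial list, 2 rose and 9 fell of 16 (median -0.66), with 5 higher and 9 lower without both libraries numbered 3 or replicate 3 of 96 h. In the mesenchymal list, 11 rose and 0 fell of 12 (median 1.30). E-cadherin (Cdh1) had 713, 750.1 and 677 CPM at 72 h and 403, 380.2 and 194 CPM at 96 h (log2 fold change -1.13 ± 0.16, adjusted p = 1.03e-05), and N-cadherin (Cdh2) had 26.1, 34.3 and 41.7 CPM at 72 h and 268, 279 and 228 CPM at 96 h (log2 fold change 2.93 ± 0.11, adjusted p = 4.59e-13). The claudins Cldn6 and Cldn7 and the splicing factor Esrp1 fell (log2 fold changes -2.41 ± 0.09, -2.61 ± 0.14 and -1.15 ± 0.08). Desmoplakin (Dsp) and the keratin Krt8 rose (log2 fold changes 1.58 ± 0.09 and 1.07 ± 0.20). Zeb1 had 3.14, 4.01 and 4.35 CPM at 72 h and 27.0, 30.7 and 28.4 CPM at 96 h (log2 fold change 2.91 ± 0.14, adjusted p = 1.37e-11). Zeb2 and Snai1, also repressors of E-cadherin, rose (log2 fold changes 1.73 ± 0.11 and 1.20 ± 0.21). Among all cadherins and protocadherins, 9 of 14 tested members rose and 2 fell, with a median log2 fold change of 1.16. Counts were 8 higher and 1 lower with only the groups compared in the fit. Pcdh19 had 3.62, 4.33 and 5.003 CPM at 72 h and 217, 253 and 58.1 CPM at 96 h (log2 fold change 5.36 ± 0.40, adjusted p = 3.45e-09).

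Matrix genes rose in the majority. Collagens gave 10 up and 3 down of 15, laminins and basement membrane genes 8 and 2 of 14, and integrins 8 and 1 of 14, the integrins with 8 higher and 2 lower without replicate 3 of 72 h. Col13a1, a membrane collagen, had 0.373, 0.938 and 1.30 CPM at 72 h and 55.0, 59.7 and 43.2 CPM at 96 h (log2 fold change 5.95 ± 0.25, adjusted p = 1.78e-12). Lama1 had 7.84, 10.5 and 8.84 CPM at 72 h and 131, 150.3 and 72.3 CPM at 96 h (log2 fold change 3.70 ± 0.23, adjusted p = 2.62e-10) while Lama5 had 1037, 949 and 766 CPM at 72 h and 424, 390.4 and 466 CPM at 96 h (log2 fold change -1.10 ± 0.09, adjusted p = 1.65e-08), so the alpha chains of laminin went in opposite directions. Itga5, the alpha chain of the fibronectin receptor, had 13.6, 11.2 and 14.2 CPM at 72 h and 37.4, 39.5 and 30.7 CPM at 96 h (log2 fold change 1.47 ± 0.10, adjusted p = 9.88e-10). Itgb4, of hemidesmosomes, fell (log2 fold change -1.57 ± 0.23), and Itgb8 rose (log2 fold change 3.12 ± 0.32). Col18a1 had 379, 362 and 407 CPM at 72 h and 164, 164 and 368 CPM at 96 h, with replicate 3 of 96 h inside the 72 h range (log2 fold change -0.73 ± 0.19, adjusted p = 0.00394; adjusted p = 0.0838 with only the groups compared).

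Guidance and boundary genes more often rose than fell. Semaphorins, netrins, slits and their receptors gave 15 up and 1 down of 20 (median 1.46), with 16 higher and 4 lower without both libraries numbered 3 or replicate 3 of 96 h. Plxna2, a semaphorin receptor, had 5.38, 6.88 and 5.85 CPM at 72 h and 276, 311 and 85.1 CPM at 96 h (log2 fold change 5.21 ± 0.35, adjusted p = 9.45e-10). Slit2 had 3.04, 4.59 and 4.09 CPM at 72 h and 26.1, 26.1 and 18.9 CPM at 96 h (log2 fold change 2.60 ± 0.17, adjusted p = 6.59e-10) and its receptor gene Robo1 rose (log2 fold change 1.10 ± 0.08). Eph receptors gave 7 up and 2 down of 11, and ephrins 6 and 1 of 8. For the Eph receptors, counts were 7 higher and 1 lower with only the groups compared in the fit, a filter of 1 CPM in 3 libraries or DESeq2's Wald test. Efna1 had 1.12, 1.93 and 2.53 CPM at 72 h and 35.6, 39.6 and 23.2 CPM at 96 h (log2 fold change 4.16 ± 0.25, adjusted p = 2.17e-10). Epha4, which sets somite borders, had 7.84, 12.6 and 30.1 CPM at 72 h and 144, 157 and 73.9 CPM at 96 h (log2 fold change 2.93 ± 0.33, adjusted p = 5.63e-07; 3.61 without replicate 3 of 72 h). Epha2 fell from 284, 278 and 381 CPM at 72 h to 119, 115 and 161 CPM at 96 h (log2 fold change -1.25 ± 0.12, adjusted p = 4.75e-08).

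Markers of other lineages differed widely in level. Members of the neural list summed to 129, 145 and 174 CPM at 72 h and 320, 305 and 320 CPM at 96 h. The neural list gave 8 up and 1 down of 11, with 8 higher and 2 lower without both libraries numbered 3 or replicate 3 of 96 h. Counts were 5 to 9 higher and 1 to 2 lower with only the groups compared in the fit or no filter. Sox1 had 0.426, 0.990 and 1.36 CPM at 72 h and 1.91, 1.57 and 14.6 CPM at 96 h (log2 fold change 2.67 ± 0.67, adjusted p = 0.00239; 0.96 without replicate 3 of 96 h, adjusted p = 0.0557 with only the groups compared and adjusted p from 0.0669 to 0.0850 in 2 of 3 limma fits on FPKM), and its 96 h level rests on replicate 3. Neurog2 had 0, 0.0521 and 0.195 CPM at 72 h and 2.07, 3.10 and 3.93 CPM at 96 h (log2 fold change 5.19 ± 0.62, adjusted p = 1.14e-06; 6.50 without replicate 3 of 72 h), and Neurod1 fell (log2 fold change -1.08 ± 0.21). Neural crest and surface ectoderm genes gave 7 up and 0 down of 9. Grhl3, of surface ectoderm, had 1.60, 1.93 and 1.62 CPM at 72 h and 24.6, 26.0 and 22.6 CPM at 96 h (log2 fold change 3.82 ± 0.15, adjusted p = 4.99e-13). Sox9 had 0.533, 0.730 and 0.715 CPM at 72 h and 13.4, 14.01 and 9.04 CPM at 96 h (log2 fold change 4.20 ± 0.27, adjusted p = 5.20e-10), while Sox10 was not called (adjusted p = 0.155). Lateral, intermediate and cardiac mesoderm gave 3 up and 2 down of 8, with 3 higher and 1 lower without both libraries numbered 3 or replicate 2 of 72 h or replicate 3 of 72 h or replicate 2 of 96 h, and 3 higher and 0 lower without replicate 1 of 72 h or replicate 3 of 96 h. Counts were 1 to 3 higher and 0 to 2 lower with only the groups compared in the fit, limma on FPKM, no filter, a filter of 1 CPM in 3 libraries, a replicate block or DESeq2's Wald test. Its tested members were at low levels, up to the 5.46 CPM of Mef2c in replicate 3 of 72 h. The shares over all tested genes were 27.5% up and 27.4% down. Endothelium and blood genes gave 5 up and 3 down of 11. Their sum was 97.2, 134 and 112 CPM at 72 h and 479, 463 and 217 CPM at 96 h. Counts were 3 higher and 2 to 3 lower with only the groups compared in the fit or 2 of 3 limma fits on FPKM. The apelin receptor Aplnr, expressed widely in early mesoderm, had 3.14, 7.82 and 1.88 CPM at 72 h and 251, 242 and 90.4 CPM at 96 h (log2 fold change 5.46 ± 0.39, adjusted p = 1.68e-09; 6.25 without replicate 2 of 72 h), and Lmo2 had 9.33, 12.04 and 10.6 CPM at 72 h and 75.2, 75.5 and 36.4 CPM at 96 h (log2 fold change 2.55 ± 0.20, adjusted p = 4.79e-09). Kdr, the VEGF receptor, rose to 2.07, 1.74 and 0.873 CPM at 96 h (log2 fold change 1.51 ± 0.35).

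Extraembryonic endoderm genes gave 2 up and 1 down of 11, with 5 higher and 1 lower without both libraries numbered 3 or replicate 3 of 96 h, and 5 higher and 2 lower without replicate 2 of 72 h, and 2 higher and 2 lower without replicate 1 of 96 h. Counts were 4 to 5 higher and 1 to 2 lower with 2 of 3 limma fits on FPKM, no filter or a replicate block. Those that rose were the basement membrane genes Lamb1 and Col4a1 (log2 fold changes 0.66 ± 0.13 and 0.91 ± 0.08), and Apoe, a lipid carrier expressed in many cells, fell (log2 fold change -1.81 ± 0.08). Of the defining markers that were tested, Ttr was not called (adjusted p = 0.0944; 3.11 at adjusted p = 0.00940 without replicate 2 of 72 h and adjusted p from 0.0270 to 0.0439 in 3 of 3 limma fits on FPKM), nor was Amn (adjusted p = 0.0528; -0.78 at adjusted p = 0.0383 without replicate 2 of 72 h, -0.87 at adjusted p = 0.0312 without replicate 1 of 96 h and adjusted p = 0.0449 with a replicate block). The trophoblast list gave 2 up and 3 down of 7. Its members that rose, Cdx2 and Tfap2c, are shared with tailbud and germ cell lists, and Elf5, Plac1 and Tpbpa did not pass the filter. Fibroblast and feeder genes gave 3 up and 2 down of 5. Counts were 2 to 3 higher and 1 lower with only the groups compared in the fit or 2 of 3 limma fits on FPKM. Col1a2 had 3.68, 3.23 and 2.73 CPM at 72 h and 31.8, 33.6 and 7.30 CPM at 96 h (log2 fold change 2.91 ± 0.37, adjusted p = 2.98e-06), and Dcn had 18 counts at 72 h and 0 at 96 h (0.320, 0.365 and 0.325 CPM at 72 h and 0, 0 and 0 CPM at 96 h; adjusted p = 0.0514 and 0.0792 in 2 of 3 limma fits on FPKM). Muscle and cytoskeleton genes gave 5 up and 4 down of 13, with 3 higher and 3 lower without replicate 2 of 72 h. Counts were 3 higher and 4 lower with only the groups compared in the fit. Among all tested genes, 27.5% rose and 27.4% fell. The leading fall of the muscle and cytoskeleton list was Cnn1 (log2 fold change -2.53 ± 0.22). Zic, Sall, Iroquois and Sox genes of the axis gave 7 up and 2 down of 16. Counts were 11 higher and 3 lower with no filter. Sall1 had 55.0, 48.9 and 56.4 CPM at 72 h and 142, 152 and 157 CPM at 96 h (log2 fold change 1.49 ± 0.06, adjusted p = 8.23e-13), and Zic2 had 142, 131 and 123.5 CPM at 72 h and 51.7, 45.4 and 64.7 CPM at 96 h (log2 fold change -1.30 ± 0.09, adjusted p = 9.45e-10).

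The metabolic lists differed in direction. Glycolysis genes gave 9 up and 7 down of 18. Counts were 8 to 9 higher and 3 to 4 lower with only the groups compared in the fit or limma on FPKM. The transporter Slc2a3 had 156, 169 and 219 CPM at 72 h and 484, 499.8 and 1319 CPM at 96 h (log2 fold change 2.08 ± 0.26, adjusted p = 2.08e-06; 1.44 without replicate 3 of 96 h), and the kinase Pdk1, which limits entry of pyruvate into the TCA cycle, fell (log2 fold change -0.71 ± 0.11). TCA cycle genes gave 2 up and 6 down of 15, with 4 higher and 6 lower without both libraries numbered 3, and 1 higher and 5 lower without replicate 1 of 72 h or replicate 2 of 72 h, and 1 higher and 7 lower without replicate 1 of 96 h. Counts were 0 higher and 6 lower with only the groups compared in the fit. Nuclear genes of the respiratory chain gave 1 up and 10 down of 20 (median -0.12), and mitochondrially encoded subunits 0 and 0 of 7. For the nuclear genes, counts were 2 to 3 higher and 8 lower with limma on FPKM. For the mitochondrial ones, counts were 1 higher and 6 lower with no filter. Cyc1, of complex III, had 212, 213 and 212 CPM at 72 h and 157, 148 and 150.1 CPM at 96 h (log2 fold change -0.48 ± 0.04, adjusted p = 3.52e-09). Sterol synthesis gave 1 up and 11 down of 17 (median -0.29). Lss, which closes the sterol rings, had 185, 205 and 194 CPM at 72 h and 128, 124 and 121 CPM at 96 h (log2 fold change -0.65 ± 0.05, adjusted p = 2.60e-09).

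Stress genes fell more often than they rose. Amino acid stress genes of Atf4 gave 0 up and 13 down of 15 (median -0.61). Trib3, a pseudokinase induced by Atf4, had 15.5, 12.4 and 9.49 CPM at 72 h and 2.97, 3.20 and 1.93 CPM at 96 h (log2 fold change -2.19 ± 0.17, adjusted p = 4.72e-09). Chac1, which degrades glutathione, had 12.4, 8.08 and 8.84 CPM at 72 h and 2.84, 2.12 and 1.62 CPM at 96 h (log2 fold change -2.11 ± 0.22, adjusted p = 2.25e-07). Atf4 itself had 228, 229 and 208 CPM at 72 h and 144, 135 and 150.2 CPM at 96 h (log2 fold change -0.63 ± 0.05, adjusted p = 1.61e-08). Target genes of p53 gave 2 up and 6 down of 12. Cdkn1a (p21) had 450.2, 458 and 494 CPM at 72 h and 214, 206 and 169.9 CPM at 96 h (log2 fold change -1.25 ± 0.06, adjusted p = 1.48e-11), and Trp53inp1 fell (log2 fold change -1.09 ± 0.05). Immediate early and heat shock genes gave 1 up and 7 down of 15, with 3 higher and 7 lower without both libraries numbered 3, and 2 higher and 6 lower without replicate 3 of 72 h, and 2 higher and 7 lower without replicate 3 of 96 h. Egr1 had 20.1, 23.4 and 27.8 CPM at 72 h and 8.09, 5.81 and 5.86 CPM at 96 h (log2 fold change -1.83 ± 0.21, adjusted p = 5.91e-07).

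Cell cycle lists held rises and falls. Replication genes gave 6 up and 6 down of 14, and mitosis genes 5 and 2 of 14, the latter with 5 higher and 1 lower without both libraries numbered 3 or replicate 3 of 72 h, and 6 higher and 1 lower without replicate 1 of 96 h. For mitosis, counts were 5 to 6 higher and 1 lower with only the groups compared in the fit or limma on FPKM. Cyclins, inhibitors and Myc genes gave 10 up and 3 down of 15. Ccnd2 had 137, 164 and 185 CPM at 72 h and 473, 480.1 and 464 CPM at 96 h (log2 fold change 1.55 ± 0.09, adjusted p = 2.04e-10). Mycn and Mycl, of the Myc family, rose (log2 fold changes 1.62 ± 0.12 and 1.87 ± 0.09).

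Fetal growth and RNA-binding genes more often rose than fell. Members of the let-7 axis gave 7 up and 1 down of 10, with 8 higher and 2 lower without both libraries numbered 3. Hmga2, a chromatin protein held down by let-7, had 37.6, 35.3 and 34.1 CPM at 72 h and 178, 198 and 266 CPM at 96 h (log2 fold change 2.58 ± 0.12, adjusted p = 9.34e-12). Arid3a had 33.6, 36.4 and 36.6 CPM at 72 h and 122, 125 and 127 CPM at 96 h (log2 fold change 1.81 ± 0.07, adjusted p = 4.99e-13). Imprinted genes, expressed from 1 parental copy, gave 13 up and 2 down of 22 (median 0.92). H19 had 1.49, 1.72 and 1.23 CPM at 72 h and 29.2, 38.9 and 45.7 CPM at 96 h (log2 fold change 4.65 ± 0.24, adjusted p = 1.89e-11). Igf2, its neighbour and a fetal growth factor, had 0.213, 0.104 and 0.0650 CPM at 72 h and 11.1, 9.67 and 28.1 CPM at 96 h (log2 fold change 6.88 ± 0.55, adjusted p = 6.97e-09; 6.25 without replicate 3 of 96 h), and overlaps the antisense gene Igf2os. Peg10 had 232, 240.4 and 308 CPM at 72 h and 1137, 1161 and 1074 CPM at 96 h (log2 fold change 2.11 ± 0.10, adjusted p = 4.14e-12). Peg3 had 459, 554 and 486 CPM at 72 h and 2049.5, 2130.0 and 684 CPM at 96 h, with replicate 3 closer to 72 h (log2 fold change 1.70 ± 0.26, adjusted p = 2.09e-05). Polycomb and trithorax genes gave 7 up and 7 down of 19, beside 27.5% up and 27.4% down among all tested genes. Cbx7, the Polycomb subunit of embryonic stem cells, had 178, 166 and 169 CPM at 72 h and 51.9, 44.3 and 40.8 CPM at 96 h (log2 fold change -1.90 ± 0.07, adjusted p = 3.63e-13), and Cbx2, that of differentiating cells, had 61.2, 59.6 and 71.9 CPM at 72 h and 147, 154 and 148 CPM at 96 h (log2 fold change 1.22 ± 0.06, adjusted p = 7.70e-12). Ezh1 fell and Ezh2 rose (log2 fold changes -1.18 ± 0.08 and 0.43 ± 0.04), so the CBX and EZH paralogues moved in opposite directions.

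The control step was then set against the early arm, which had its pulse 24 h sooner, at the same ages (72 to 96 h) and over the same time after the pulse (48 to 72 h). These steps share no library with the control step. The early steps had 35.3% of tested genes called at 72 to 96 h and 42.6% at 48 to 72 h. The difference between steps was called at 5383 genes (33.6%) for equal ages and at 7146 (44.5%) for equal time after CHIR. In the presomitic list 8 of 10 genes differed at equal ages, in the retinoic acid list 10 of 11, in the formative list 11 of 13 and in the imprinted list 15 of 22. Glycolysis and mitosis lists differed at 3 of 18 and 2 of 14.

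T went opposite ways at equal ages. It had 25.5, 21.9 and 26.9 CPM at 72 h and 641, 541 and 478 CPM at 96 h in the early arm, and the control step minus the early step was -5.24 ± 0.23 (adjusted p = 1.17e-11). Over the day after the pulse T fell in both arms, with log2 fold changes of -0.75 ± 0.15 in the control arm and -0.72 ± 0.18 in the early arm. That difference of -0.03 ± 0.23 (adjusted p = 0.943) was not called. Tbx6 had 0.483, 0.614 and 0.515 CPM at 48 h, 0.546, 0.530 and 0.656 CPM at 72 h and 1.60, 0.900 and 0.809 CPM at 96 h in the early arm, below every 96 h control library. Its control step exceeded the early step by 6.02 ± 1.06 (adjusted p = 0.000248) at equal ages and by 6.86 ± 1.21 (adjusted p = 0.000166) after the pulse. Cdx2 rose in both arms at equal ages (2.40 ± 0.53 in the early arm), and the difference of 1.14 ± 0.68 (adjusted p = 0.218) was not called. Early Cdx2 levels were 3.00, 2.52 and 3.43 CPM at 48 h and 0.546, 0.937 and 0.417 CPM at 72 h. At 96 h they were 4.20, 3.27 and 3.18 CPM, still below every control library of 72 and 96 h. The call for Cdx2 at equal ages was made without control replicate 3 of 72 h (difference 1.56, adjusted p = 0.0192). It was also made at adjusted p = 0.000415 with no filter, adjusted p = 0.0247 with a replicate block, adjusted p = 0.0307 with DESeq2's Wald test and adjusted p from 6.95e-05 to 0.0213 in 3 of 3 limma fits on FPKM. After the pulse, Cdx2 fell in the early arm (-2.16 ± 0.55), and the difference was 5.70 ± 0.57 (adjusted p = 3.09e-07). Hoxb9 had 0.347, 0.407 and 0.298 CPM at 72 h and 0.221, 0.0474 and 0.0578 CPM at 96 h in the early arm, so its differences of 10.90 ± 3.97 (adjusted p = 0.0417, from 9.03 to 12.55 with 1 library left out) at equal ages and 9.38 ± 3.60 (adjusted p = 0.0421, from 7.50 to 11.03 with 1 library left out) after the pulse rest on few early counts. The call for Hoxb9 at equal ages was lost without any 1 of 8 of the 12 libraries, at adjusted p from 0.0516 to 0.131 (control replicates 1 and 2 of 72 h, each early library of 72 h and each early library of 96 h). It was also lost at adjusted p = 0.0960 with only the groups compared. The call for Hoxb9 after the pulse was lost without any 1 of 8 of the 12 libraries, at adjusted p from 0.0525 to 0.175 (each early library of 48 h, control replicates 1 and 2 of 72 h and each early library of 72 h). It was also lost at adjusted p = 0.103 with only the groups compared.

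The control steps of Nodal, Nanog and Otx2 lay below both early steps. Nodal had 198, 202 and 196 CPM at 72 h and 181, 179 and 181 CPM at 96 h in the early arm, and its differences were -3.63 ± 0.29 (adjusted p = 3.84e-08) at equal ages and -3.96 ± 0.29 (adjusted p = 6.43e-09) after the pulse. Nanog had 207, 211 and 210.4 CPM at 72 h and 356, 367 and 391.5 CPM at 96 h, and its differences were -4.42 ± 0.17 (adjusted p = 2.21e-12) and -3.58 ± 0.17 (adjusted p = 1.97e-11). Otx2 had 142, 148 and 149.8 CPM at 72 h and 96.5, 108 and 109 CPM at 96 h, and its differences were -3.06 ± 0.30 (adjusted p = 4.70e-07) and -4.11 ± 0.30 (adjusted p = 5.13e-09). Aldh1a2 had 1.34, 0.937 and 1.07 CPM at 72 h and 1.38, 0.805 and 0.982 CPM at 96 h in the early arm, and its control step was larger by 8.25 ± 2.00 (adjusted p = 0.00380) and 9.17 ± 1.65 (adjusted p = 0.000199). Axin2 rose at 72 to 96 h in both arms (0.31 ± 0.06 and 0.54 ± 0.06), with a difference of -0.24 ± 0.08 (adjusted p = 0.0368). Early Axin2 levels were 119, 117 and 125 CPM at 48 h and 79.4, 82.1 and 81.6 CPM at 72 h. At 96 h they were 121, 124 and 109 CPM. The call for Axin2 at equal ages was lost without any 1 of 9 of the 12 libraries, at adjusted p from 0.0537 to 0.107 (control replicates 1 and 2 of 72 h, each early library of 72 h, control replicates 1 and 2 of 96 h and early replicates 1 and 2 of 96 h). It was also lost at adjusted p = 0.0711 with DESeq2 size factors, adjusted p = 0.0714 with only the groups compared and adjusted p = 0.0779 with DESeq2's Wald test. After the early pulse Axin2 fell (-0.57 ± 0.06), and the difference was 0.87 ± 0.08 (adjusted p = 1.78e-07). Fgf8 had 11.3, 10.39 and 11.5 CPM at 72 h and 64.9, 63.9 and 53.9 CPM at 96 h in the early arm, with differences of -1.87 ± 0.28 (adjusted p = 4.69e-05) and 0.72 ± 0.30 (adjusted p = 0.0550), the second not called. The call for Fgf8 after the pulse was made without any 1 of 3 of the 12 libraries, at adjusted p from 0.00888 to 0.0462 (early replicate 2 of 48 h and control replicates 1 and 2 of 96 h). It was also made at adjusted p = 4.39e-07 with no filter and adjusted p = 0.0472 with a replicate block.

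**Figure D5:**
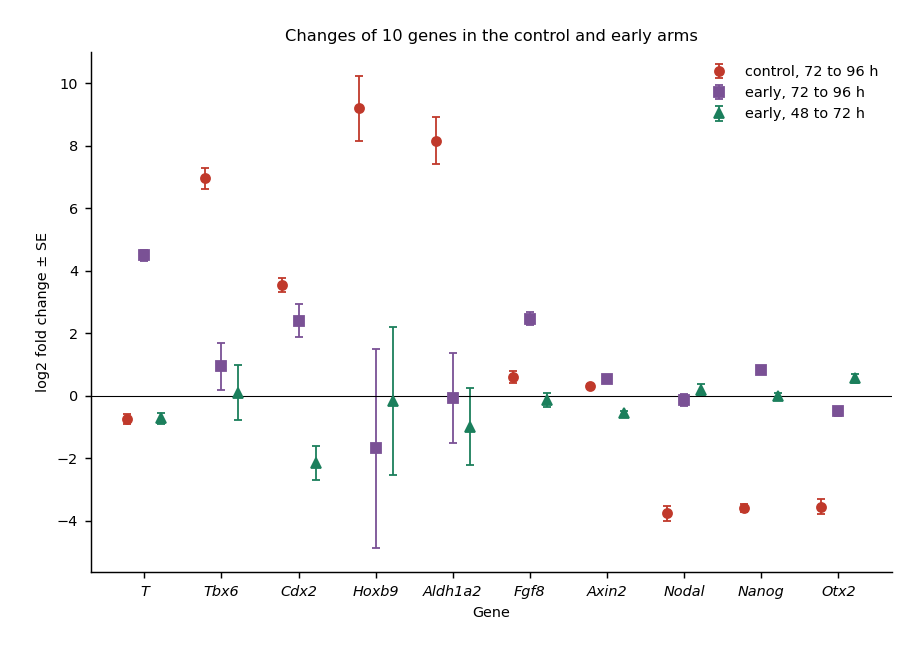
log2 fold change ± SE of 10 genes in the control step from 72 to 96 h (circles), the early arm at the same ages (squares) and the early arm over the day after its pulse (triangles). Circles stand at 6.96 for Tbx6, 9.21 for Hoxb9 and 8.17 for Aldh1a2, above the squares and triangles of these genes, and T stands at -0.75 in circles, -0.72 in triangles and 4.49 in squares.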

How the data were processed

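PolyA RNA was sequenced from 18 pools of gastruloids with a stranded ligation kit, per the labels' protocols. The labels name library preparation codes without saying which libraries each covers, so preparation could not be used as a batch. Reads were trimmed with cutadapt 4.0, aligned with STAR 2.7.8a to mm10 and quantified with Cufflinks 2.2.1, per the submitters' processing notes, which do not say which tool counted. The authors deposited raw counts per gene (55385 genes) and FPKM values (55468 genes). Gene positions were taken from the deposited FPKM data, and gene types and strands from GENCODE M21, in which 412 tested genes were not found.

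Counts were fitted with edgeR 4.0.16 (R 4.3.3) over all 18 libraries, with filterByExpr, TMM scaling, 1 coefficient per group and the 2-sided quasi-likelihood F test, adjusted over 16041 genes. The standard error is the log2 fold change divided by the square root of F. The script was tested on simulated data. The members and lists were chosen with earlier results of these data known. Of 62 lists, up to 4 called members of lowest adjusted p in the main direction and 2 in the other were named, beside the 10 largest called rises and falls by log2 fold change and by CPM and a panel of 10 genes. A few names were left out for length, and 2 list members are not reported here. Names outside these rules were chosen after their values were seen.

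A floor of 3 counts over a group stood in for 0, and counting intervals are exact Poisson-based 95% intervals that cover counting error only. Alternatives were DESeq2 1.42.0 (test and size factors), limma 3.58.1 on log2 of the deposited FPKM plus 0.1 or 1, other filters, a replicate block, only the groups compared, and leaving out libraries. The fits without both control libraries numbered 3 also left out control replicate 3 of 48 h. The strand setting of the counting is not given in the sources used here, so the named genes with a tested gene on the opposite strand (also Bmp4, Cbx7, Col18a1, Col4a1, Dnmt3b, Eomes, Evx1, Fgf15, Fn1, Gbx2, Gli1, Hoxd3, Lef1, Notch1, Rarb, Stra6, Sycp3 and Wnt5b) may hold its reads. Tables used pandas 2.3.3 and scipy 1.17.1 under Python 3.11.15, and plots matplotlib 3.10.9.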

Additional observations from a re-analysis of the deposited data

Results flagged for a closer look

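The results below stand out because the control step differed from a step of the early arm in a test of that difference (edgeR quasi-likelihood test, log2 scale, control minus early, adjusted over all genes). They are a panel of 10 genes chosen with earlier results known. At equal ages (72 to 96 h in both arms), the control step was higher by 6.02 for Tbx6, 10.90 for Hoxb9 and 8.25 for Aldh1a2. It was lower at -5.24 for T, -3.63 for Nodal, -4.42 for Nanog, -3.06 for Otx2, -0.24 for Axin2 and -1.87 for Fgf8. Over the day after each arm's pulse, it was higher by 6.86 for Tbx6, 5.70 for Cdx2, 9.38 for Hoxb9, 9.17 for Aldh1a2 and 0.87 for Axin2. It was lower at -3.96 for Nodal, -3.58 for Nanog and -4.11 for Otx2. The values by library at 72 and 96 h stand with each gene above. Early values at 48 h are given for Tbx6, Cdx2 and Axin2 only. The differences for Hoxb9 and that for Axin2 at equal ages were called at adjusted p between 0.0368 and 0.0421 and lost the call without single libraries and with only the groups compared.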

How the results depend on the processing

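Called genes numbered 4410 higher and 4392 lower, 4110 to 4620 and 3905 to 4476 with 1 library left out, and 3515 to 4646 and 3315 to 4532 under the other alternatives, the lowest with only the groups compared. At least 2-fold changes (2676) numbered 2654 to 2883 with 1 library left out. They numbered 886 with limma on log2(FPKM + 1), 887 with the same over all genes and 1972 on log2(FPKM + 0.1). A pseudocount shrinks the changes of low genes, but these fits also used FPKM and limma in place of counts and edgeR. The part of each in the lower numbers was not tested. The differences between arms were called at 5383 genes at equal ages (4650 to 6070 with 1 library left out) and 7146 after the pulse (6389 to 7696). The share of called genes that were higher ran from 49.6% to 53.2%.

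Of the named genes called higher or lower, 10 lost the call with only the groups compared, 1 with DESeq2's Wald test, and 14, 15 and 11 with limma on log2(FPKM + 1), on log2(FPKM + 0.1) and on log2(FPKM + 1) over all genes. Not every named gene could be compared in each setting. Of 213, this held for 201 with only the groups compared and 210 with the Wald test. It held for 204 with limma over all genes and 208 with a filter of 1 CPM in 3 libraries. A gene that could not be compared is not counted as a lost call. In both fits without all genes, 7 of these (6 miRNA hosts and Rarb) are listed at 0 in the FPKM of both ages. Each other setting that left out no library ended no such call, and none of these settings made more than 3. With no filter, the adjusted p of Wnt8a and of Fgf8 after the pulse fell far at nearly unchanged log2 fold changes. The reason was not tested. The direction turned in a few cases, all but Hoxa7, Hoxa4 and Hoxa2 at values that were not called to begin with. Hoxa7 was -0.20 on log2(FPKM + 1), also over all genes, and -1.14 on log2(FPKM + 0.1), where it is listed at 0 at 96 h. Hoxa4 turned in the same fits and Hoxa2 on log2(FPKM + 0.1), with 96 h libraries listed at 0. Pcdh8 was 0.27 without both control libraries numbered 3, and -0.46 to 0.25 with 1 library left out. The difference for T after the pulse was 0.021 without both libraries numbered 3, and -0.18 to 0.13 with 1 library left out. The cause was not tested.

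Same-numbered libraries deviated together with correlations of 0.02, 0.12 and 0.11, against -0.12 to 0.08 for different numbers. For each 72 h library the same number gave the highest correlation. All were small, and the numbers were not taken to pair the samples. With a replicate block, 4496 genes were higher, 4532 lower, and 5628 and 7383 differed between arms. With 3 libraries a group, genes near 0 in both groups limit what can be seen. Of 62 lists, 13 moved a count by over 1.5 times with only the groups compared, 12 without both control libraries numbered 3, 8 to 10 with limma on FPKM, 3 to 9 with 1 library left out and 1 to 6 under the others.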
